A study of Mus musculus with 8 samples.

Results

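Members of the PARP family and the partner protein gene Dtx3l were followed across 3 states of mouse macrophages. The 8 genes, Parp1, Parp2, Parp8, Parp9, Parp10, Parp12, Parp14 and Dtx3l, were taken by symbol from a deposited table that names 20258 genes. Of these, 6 (Parp8, Parp9, Parp10, Parp12, Parp14 and Dtx3l) are called interferon-linked here, and Parp1 and Parp2, which act in DNA repair, were added for contrast. All 8 varied between libraries and were among the 13615 genes tested.

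The cells were macrophages grown from bone marrow of C57BL/6 mice, with no genetic change named in the labels. They were left for 24 h without stimulus (2 libraries), with IL4 (3 libraries), or with bacterial lipopolysaccharide and interferon gamma together (LPS plus IFNg, 3 libraries). No dose, and neither the sex nor the age of the mice, is stated in the labels. The labels also do not say whether libraries of 1 group came from separate mice or cultures, so p-values measure the spread between these libraries, which may be technical. Because LPS and IFNg were given together, their effects cannot be told apart. RNA was captured by its poly(A) tail and sequenced from the 3' end, and each value is a log2 expression level after the authors' quantile normalisation across libraries.

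PARP enzymes take NAD and transfer ADP-ribose from it onto proteins. Parp1 and Parp2 build long chains of ADP-ribose at broken DNA, while most of the other members attach a single unit. Several of the latter are known targets of interferons in macrophages and restrict viruses or act in cytokine signalling. Parp9 and Parp14 carry macrodomains, folds that bind ADP-ribose. Dtx3l is a ubiquitin ligase of the deltex family that works in a complex with Parp9, and the Parp9 and Dtx3l genes lie head to head on the chromosome beside Parp14.

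Sequences just before the gene starts are shown because interferons act on genes through short DNA motifs there. The windows reach from 250 bases before to 50 bases after the start, are credited to RefSeq, and use the build GRCm38.p6. The interferon gamma motif was searched as TTCNNNGAA and, with a base more between its arms, as TTCNNNNGAA. The motif of interferon-stimulated genes was searched as GAAANNGAAA. Both strands were read, and the motifs may overlap each other. Among all 32851 windows, 8.30% held TTCNNNGAA, 6.95% held TTCNNNNGAA and 3.44% held GAAANNGAAA. Windows were given for 5 of the 8 genes (Parp1, Parp2, Parp8, Parp12 and Dtx3l) and for 8 of 9 other PARP family genes. Capitals mark the matches.
Dtx3l, chr16:35938978-35939003, minus strand, across its only match, TTCNNNNGAA at base 35 after the start: aggagggaccTTCTGGGGAAtcgaaa
Parp12, chr6:39118350-39118469, minus strand, just before the start, no match in the window: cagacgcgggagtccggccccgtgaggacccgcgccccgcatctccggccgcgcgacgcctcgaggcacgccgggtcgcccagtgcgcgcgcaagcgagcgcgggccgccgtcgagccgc
Parp1, chr1:180568771-180568890, plus strand, just before the start, no match in the window: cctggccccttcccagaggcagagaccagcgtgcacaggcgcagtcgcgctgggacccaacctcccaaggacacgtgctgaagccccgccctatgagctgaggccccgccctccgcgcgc
Parp11, chr6:127446720-127446839, plus strand, just before the start in 1 of its 2 windows, GAAANNGAAA on the opposite strand overlapping TTCNNNGAA: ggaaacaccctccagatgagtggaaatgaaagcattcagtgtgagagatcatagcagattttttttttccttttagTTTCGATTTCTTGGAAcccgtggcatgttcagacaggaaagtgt
Parp4, chr14:56575462-56575491, plus strand, GAAANNGAAA matched at 2 overlapping places: acactctGAAAAAGAAAGTGAAAgtcctga
Of the 5 windows of the main genes, only that of Dtx3l held any of the motifs. Among the other PARP family genes, Parp16, not printed, also held TTCNNNGAA. The windows of Parp3, Tiparp, Zc3hav1, Parp6 and Tnks2 and the second window of Parp11 held none. Whether a match goes with a change in level was not tested. A match describes the letters of the window, and the lack of one says only that these letters are not within it. Bases G and C made up 73.7% of the Parp12 window and 54.3% of the Dtx3l window.

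Genes known to respond to each stimulus were read first, as a check of the labels. Arg1, an arginase that IL4 induces, stood at 13.58 ± 0.15 (SD, n = 3) with IL4 and at 3.25 ± 1.33 (n = 2) without stimulus. With LPS plus IFNg it stood between these, at 7.65 ± 0.13 (n = 3), so its higher level was not particular to IL4. Retnla, another gene induced by IL4, stood at 11.80 ± 0.53 with IL4 and at most at 0.07 without stimulus. Nos2, the inducible nitric oxide synthase, was listed at 0 without stimulus and with IL4 and at 10.06 to 10.43 with LPS plus IFNg. Cxcl9, a chemokine induced by interferon gamma, stood at 13.64 ± 0.54 with LPS plus IFNg and at 1.71 ± 0.21 without stimulus. All 10 macrophage markers were above 0 in every library, and their summed log2 level was 102.0 to 102.3 without stimulus, 86.1 to 87.3 with IL4 and 96.8 to 99.3 with LPS plus IFNg. The 9 neutrophil and precursor markers summed to 56.8 to 57.6 without stimulus, 42.2 to 53.9 with IL4 and 26.2 to 31.1 with LPS plus IFNg, so that they moved with the stimuli. Of the 6 fibroblast markers 4 to 6 were above 0, and they summed to 32.9 to 33.8 without stimulus, 31.2 to 32.1 with IL4 and 28.7 to 39.9 with LPS plus IFNg. Col1a2, a collagen chain, stood at 9.66 to 11.11 in the 8 libraries. Col1a1, its partner, stood at 9.53 ± 0.06 without stimulus, 7.85 ± 0.51 with IL4 and 8.14 ± 0.77 with LPS plus IFNg, lower in all stimulated libraries though not past the threshold (limma, adjusted p = 0.180 and 0.144). The lymphocyte markers Cd3e, Cd2 and Ncr1 were at 0 in all 8 libraries. The part of other cells in the results was not tested, and in bulk RNA fewer cells of a type and less RNA per cell cannot be told apart. The number of reads per library is unknown, and between 8219 and 10210 genes were listed at 0 in a library.

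Of the 6 interferon-linked genes, 5 were higher with LPS plus IFNg than with IL4 past the threshold, and 4 were higher than without stimulus. Parp14, Dtx3l, Parp9 and Parp10 rose against the unstimulated cells by 4.10-fold to 11.3-fold. Parp12 passed against IL4 and not against no stimulus, and Parp8 passed the threshold in no comparison. Neither Parp1 nor Parp2 passed it in any. With IL4, Parp14 and Dtx3l fell and no gene of the set rose. The test was limma's over all 13615 genes with a Benjamini-Hochberg adjusted p of 0.05, and a fold is 2 raised to the log2 difference.

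**Figure D1:**
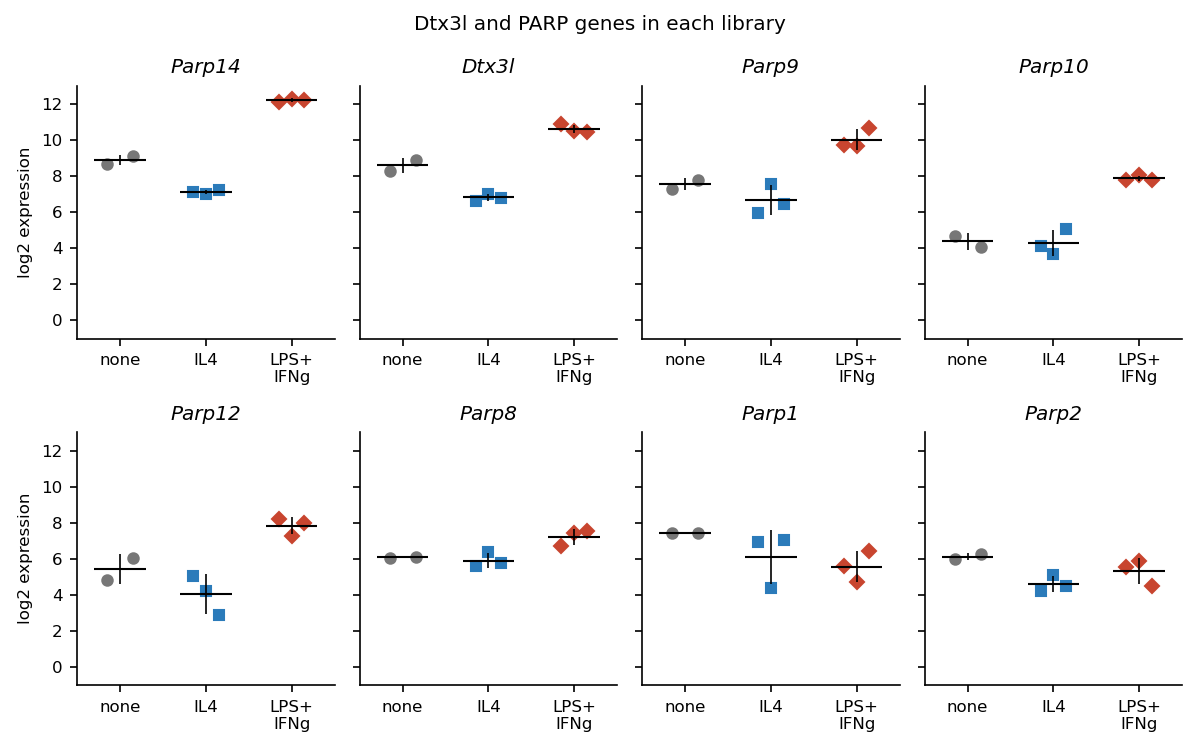
Log2 expression of the 8 genes in each of the 8 libraries by group (points), with the group mean (horizontal line) and SD (vertical line). The 3 LPS plus IFNg libraries of the 6 interferon-linked genes lie above all other libraries, from 6.69 for Parp8 to 12.29 for Parp14, while those of Parp1 lie below both unstimulated libraries.

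Parp14 is a large mono-ADP-ribosyltransferase with macrodomains that is known as a cofactor of STAT6, the transcription factor that IL4 activates. It stood at 8.70 and 9.11 without stimulus, at 7.13, 7.02 and 7.24 with IL4, and at 12.09, 12.29 and 12.24 with LPS plus IFNg. The 3 groups did not overlap in any pair, and the SD within a group was at most 0.29. Parp14 rose by 3.30 ± 0.19 (log2 difference ± SE) with LPS plus IFNg against no stimulus, which is 9.83-fold (limma, adjusted p = 0.000391). Against IL4 it was higher by 5.07 ± 0.17, or 33.6-fold (adjusted p = 2.39e-05). It fell by 1.77 on the log2 scale with IL4 against no stimulus, with an SE of 0.19 (adjusted p = 0.0134). Parp14 thus had 3 separate levels, lowest with IL4 and highest with LPS plus IFNg. The fall with IL4 missed the threshold when only these 2 groups were in the fit (adjusted p = 0.0939).

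Dtx3l stood at 8.29 and 8.90 without stimulus, at 6.65, 7.02 and 6.81 with IL4, and at 10.90, 10.52 and 10.47 with LPS plus IFNg. Its 3 groups were also separate and in the same order as those of Parp14. It rose by 2.04 ± 0.25 with LPS plus IFNg against no stimulus (4.10-fold, limma, adjusted p = 0.00446) and was higher by 3.80 ± 0.23 than with IL4 (14.0-fold, adjusted p = 0.000169). With IL4 it fell by 1.77 on the log2 scale, with an SE of 0.25 (adjusted p = 0.0265). That fall was lost when any of 5 libraries was left out, with adjusted p of 0.0729 without no stimulus replicate 2, 0.0644 without IL4 replicate 1, 0.0634 without IL4 replicate 3, 0.0638 without LPS plus IFNg replicate 2 and 0.0576 without LPS plus IFNg replicate 3. It was also lost when the spread was not tied to the level of the gene (adjusted p = 0.0640) and with only these 2 groups in the fit (adjusted p = 0.120).

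Parp9, the macrodomain partner of Dtx3l, stood at 7.31 and 7.81 without stimulus, at 5.98, 7.59 and 6.46 with IL4, and at 9.74, 9.67 and 10.68 with LPS plus IFNg. The libraries with LPS plus IFNg lay above all others, while IL4 replicate 2 lay between the unstimulated ones. Parp9 rose by 2.47 ± 0.52 with LPS plus IFNg against no stimulus (5.52-fold, limma, adjusted p = 0.0307) and was higher by 3.35 ± 0.46 than with IL4 (10.2-fold, adjusted p = 0.00397). The rise against no stimulus was lost when either unstimulated library or any LPS plus IFNg library was left out, with adjusted p of 0.191 and 0.152 without no stimulus replicates 1 and 2, and of 0.0615, 0.0630 and 0.0798 without LPS plus IFNg replicates 1, 2 and 3. It was also lost when the spread was not tied to the level of the gene (adjusted p = 0.0574). The difference of -0.89 between IL4 and no stimulus did not pass (adjusted p = 0.548).

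Parp10, a mono-ADP-ribosyltransferase, stood at 4.70 and 4.06 without stimulus, at 4.12, 3.68 and 5.08 with IL4, and at 7.80, 8.04 and 7.81 with LPS plus IFNg. The unstimulated and IL4 libraries were mixed with each other and all lay far below those with LPS plus IFNg. It rose by 3.50 ± 0.53 against no stimulus (11.3-fold, limma, adjusted p = 0.00828), a call lost without no stimulus replicate 2 (adjusted p = 0.0560), and was higher by 3.59 ± 0.47 than with IL4 (12.1-fold, adjusted p = 0.00328). Its difference between IL4 and no stimulus was -0.09 and turned to 0.058 with the libraries scaled to housekeeping genes.

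Parp12, a mono-ADP-ribosyltransferase with zinc fingers that restricts several RNA viruses, stood at 4.84 and 6.03 without stimulus, at 5.07, 4.19 and 2.89 with IL4, and at 8.19, 7.29 and 8.003 with LPS plus IFNg. It was higher by 3.78 ± 0.65 with LPS plus IFNg than with IL4 (13.7-fold, limma, adjusted p = 0.00951). Against no stimulus the difference of 2.39 did not pass (95% interval 0.69 to 4.09, adjusted p = 0.106), although all 3 libraries lay above both unstimulated ones. That difference did pass with only these 2 groups in the fit (adjusted p = 0.0494) and under scaling to housekeeping genes (adjusted p = 0.0453). Some of those housekeeping genes themselves changed with LPS plus IFNg, as given below.

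Parp8, a less studied mono-ADP-ribosyltransferase, stood at 6.05 and 6.10 without stimulus, at 5.58, 6.35 and 5.78 with IL4, and at 6.69, 7.41 and 7.53 with LPS plus IFNg. Its libraries with LPS plus IFNg were above all others, by less than those of the other 5 genes. The difference was 1.14 against no stimulus (95% interval 0.21 to 2.07, limma, adjusted p = 0.158) and 1.31 against IL4 (0.48 to 2.14, adjusted p = 0.0536). Under scaling to housekeeping genes, some of which themselves changed with LPS plus IFNg, both passed, with adjusted p of 0.0386 and 0.0167. Against IL4 it also passed without IL4 replicate 2 (adjusted p = 0.0447) and without LPS plus IFNg replicate 1 (adjusted p = 0.0433).

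Parp1, the main poly(ADP-ribose) polymerase of the nucleus, stood at 7.42 and 7.45 without stimulus, at 6.92, 4.39 and 7.03 with IL4, and at 5.58, 4.69 and 6.41 with LPS plus IFNg. Both stimuli gave values below the unstimulated ones, and the spread was widest with IL4, where replicate 2 stood lowest. The differences against no stimulus were -1.33 for IL4 (95% interval -3.37 to 0.72, limma, adjusted p = 0.601) and -1.88 for LPS plus IFNg (-3.92 to 0.17, adjusted p = 0.302). Parp2, its close relative, stood at 5.98 and 6.25 without stimulus, at 4.19, 5.09 and 4.50 with IL4, and at 5.54, 5.89 and 4.50 with LPS plus IFNg. Its differences against no stimulus were -1.52 for IL4 (-2.93 to -0.11, adjusted p = 0.367) and -0.80 for LPS plus IFNg (-2.21 to 0.61, adjusted p = 0.553), the second of which turned to 0.70 when libraries were scaled to ribosomal protein genes. Between LPS plus IFNg and IL4 the libraries of both genes overlapped, with differences of -0.55 for Parp1 and 0.72 for Parp2, and the value of Parp1 turned to 0.95 under the same scaling. That of Parp2 became 2.23 there and passed (limma, adjusted p = 0.0172), where 6844 of all genes were called higher. These intervals allow changes of more than 2 log2 units in either gene.

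**Figure D2:**
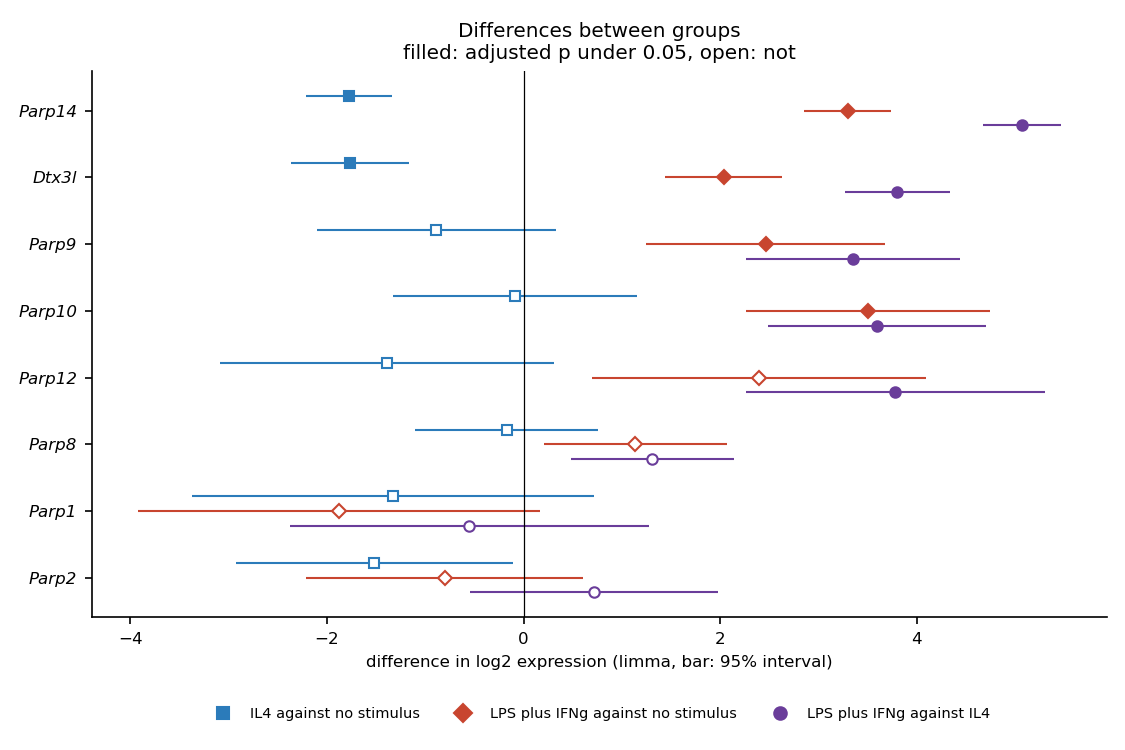
Log2 differences of the 8 genes in the 3 comparisons (limma), with 95% intervals as bars, filled where the adjusted p was under 0.05 and open where not. The LPS plus IFNg markers of Parp14, Dtx3l, Parp9 and Parp10 are filled in both comparisons, from 2.04 to 5.07, and the only filled IL4 markers are Parp14 and Dtx3l at -1.77.

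The counts of the set are given beside those of all genes tested. For LPS plus IFNg against IL4, 5 of the 8 genes were higher and 0 lower, where 5.91% of all genes tested were higher and 6.96% lower. Libraries did not overlap in 6 of 8 genes, all higher with LPS plus IFNg, against 12.4% of all genes higher and 14.8% lower. Parp1 and Parp2 were the genes that overlapped. For LPS plus IFNg against no stimulus, 4 of 8 were higher and 0 lower, where 3.72% of all genes were higher and 4.25% lower. All 6 interferon-linked genes were higher with no overlap and both DNA repair genes lower with none, against 16.1% and 20.7% of all genes. For IL4 against no stimulus, 0 of 8 were higher and 2 lower, where 0.514% were higher and 0.793% lower. Libraries of 4 genes were lower with no overlap (Parp14, Dtx3l, Parp1 and Parp2) and those of 0 higher, against 14.7% and 11.7% of all genes. At an unadjusted limma p under 0.05, 0 of the 8 were higher and 3 lower with IL4, where 753 and 895 of all 13615 genes were. The median log2 difference of the 6 interferon-linked genes was -1.14 for IL4 and 2.43 for LPS plus IFNg against no stimulus, and 3.69 between the stimuli, where the medians over all genes were -0.01, -0.04 and 0. The comparisons against no stimulus share the same 2 control libraries.

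The scale of the libraries bears on these differences. Scaling to 11 housekeeping genes moved the median of all genes by 0.15 for IL4 and 0.57 for LPS plus IFNg against no stimulus, and by 0.42 between the stimuli. Scaling to 78 ribosomal protein genes moved it by 1.50 and 1.51 in the comparisons with LPS plus IFNg. Over all genes, the 70 higher and 108 lower calls for IL4 became 80 and 71 with housekeeping genes. The 506 higher and 579 lower calls for LPS plus IFNg against no stimulus became 912 and 282 with housekeeping genes and 5574 and 182 with ribosomal protein genes. Between the stimuli, 804 and 948 became 1223 and 557, and 6844 and 284. Either scaling thus made higher calls with LPS plus IFNg the majority. The housekeeping genes were not a fixed reference. Of the 12 listed, 1 was higher and 3 lower with LPS plus IFNg against no stimulus, where 3.72% and 4.25% of all genes were. Against IL4 2 were higher and 5 lower, where 5.91% and 6.96% of all genes were. With IL4 against no stimulus 0 passed. The 4 genes called higher against no stimulus and the 5 against IL4 were still called under both scalings, as were the falls of Parp14 (-1.63 and -1.78) and Dtx3l (-1.62 and -1.77) with IL4.

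A ratio within a library does not move with a constant added to all log2 values of that library. Each interferon-linked gene was therefore set against the mean of Parp1 and Parp2 in the same library. The ratio still rests on the quantile normalisation, which need not shift all levels alike. With LPS plus IFNg against no stimulus the log2 ratio was higher by 4.84 for Parp10, 4.64 for Parp14, 3.80 for Parp9, 3.73 for Parp12, 3.38 for Dtx3l and 2.48 for Parp8, with no overlap of libraries for any of the 6. Each had p = 0.2 in the two-sided exact permutation test, the smallest that 3 against 2 libraries allow. Parp1 and Parp2 were themselves lower in every LPS plus IFNg library than without stimulus, with differences of -1.88 and -0.80. These ratios are therefore larger than the rises of the genes alone, such as 3.50 for Parp10 and 1.14 for Parp8. Against IL4 the ratio was higher by 4.99 for Parp14, 3.72 for Dtx3l, 3.70 for Parp12, 3.51 for Parp10 and 3.27 for Parp9 with no overlap (exact permutation p = 0.1, the smallest for 3 against 3), and by 1.23 with overlap for Parp8 (exact permutation p = 0.2). These 18 tests were not adjusted, since none could pass 0.05.

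With IL4 the same ratio gave another order from the levels. Relative to Parp1 and Parp2, Parp14 differed from no stimulus by -0.35 and Dtx3l by -0.34, and the libraries overlapped (exact permutation p = 0.6 for each). Without IL4 replicate 2, in which Parp1 was low, these values were -0.60 and -0.75 with no overlap (exact permutation p = 0.333, the smallest for 2 against 2). The ratio of Parp10 was higher by 1.33 and that of Parp8 by 1.25 with no overlap, while Parp9 at 0.54 and Parp12 at 0.03 overlapped. A ratio also moves with its reference, and Parp1 and Parp2 were themselves lower in every IL4 library than without stimulus.

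**Figure D3:**
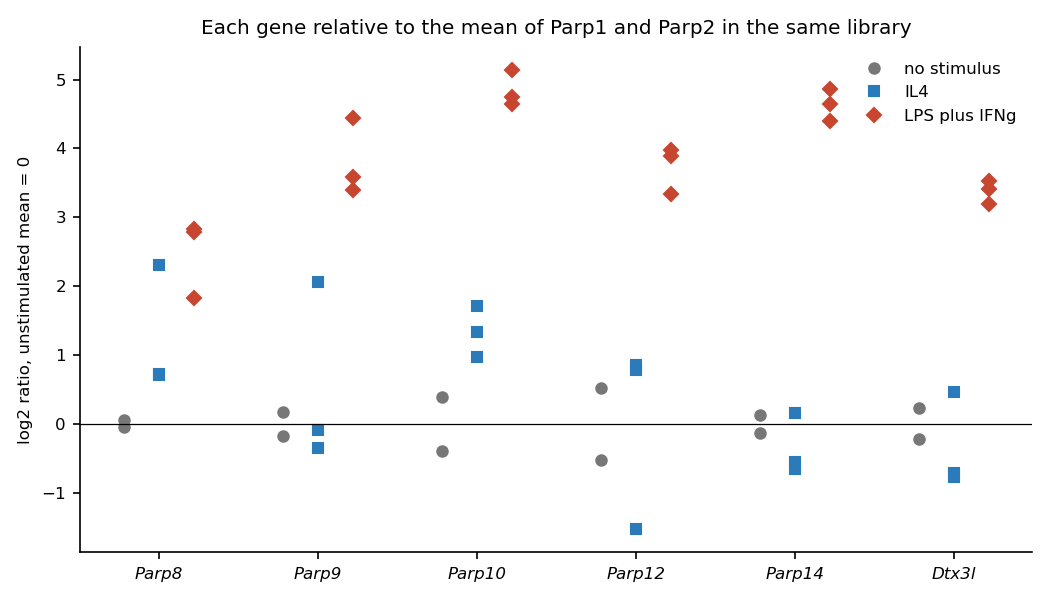
Log2 ratio of each interferon-linked gene to the mean of Parp1 and Parp2 in the same library, with the mean of the 2 unstimulated libraries set to 0 for each gene. Every LPS plus IFNg library lies at 1.83 or higher, and the IL4 libraries of Parp14 lie between -0.65 and 0.15 around the unstimulated ones.

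Dtx3l, Parp9 and Parp14 are neighbours on chromosome 16, in the order Hspbap1, Parp14, Dtx3l, Parp9 and Kpna1 in the RefSeq gene table. The 8 nearest other genes in the table, 4 on each side, were chosen for comparison after the values had been seen. Kpna1, an importin that carries proteins into the nucleus and the gene next to Parp9, stood at 7.87 and 7.67 without stimulus, at 7.86, 8.16 and 7.95 with IL4, and at 7.97, 7.78 and 6.97 with LPS plus IFNg. Its groups overlapped in every pair, and its differences were 0.22, -0.20 and -0.42 (limma, adjusted p = 0.856, 0.813 and 0.452). Hspbap1, on the side of Parp14, was higher with LPS plus IFNg than with IL4 by 4.54 ± 1.16 (adjusted p = 0.0441). It was listed at 0 in 2 of the 3 IL4 libraries, and the call was lost when any library of either group was left out. None of the other 7 genes passed in any comparison, and at an unadjusted limma p under 0.05 Dirc2 (-1.73) and Wdr5b (4.01) differed between IL4 and no stimulus. Parp9 and Dtx3l overlap at their first exons, where reads from both genes cannot be told apart without strand. Per the labels the libraries keep strand and read the 3' ends, and whether the counting used strand is not stated.

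**Figure D4:**
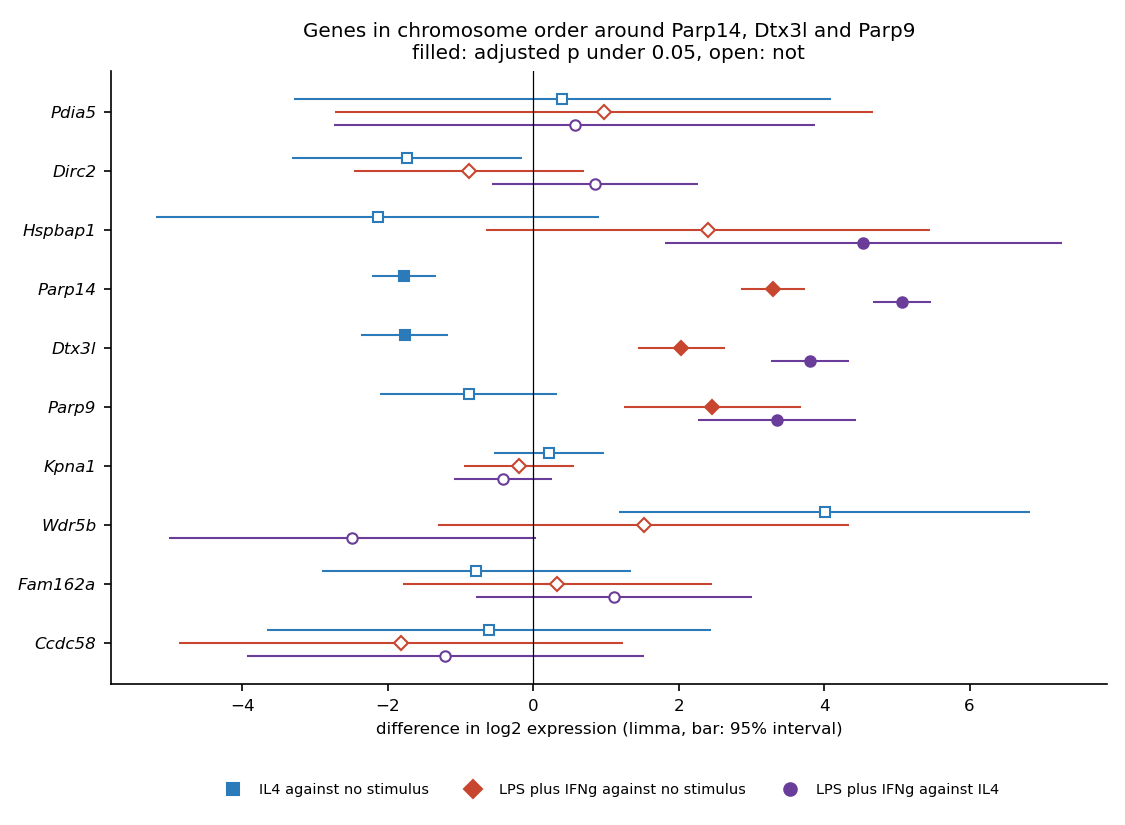
Log2 differences (limma, bars 95% intervals) of genes in their order along chromosome 16 around Parp14, Dtx3l and Parp9, filled where the adjusted p was under 0.05 and open where not. The 3 markers of Kpna1 lie between -0.42 and 0.22, and 1 marker outside Parp14, Dtx3l and Parp9 is filled, that of Hspbap1. Hspbap1, at 4.54 between the stimuli, and Wdr5b, at 4.01 for IL4 against no stimulus, also lie far from 0, with wide intervals. Sema5b, listed at 0 in 7 of the 8 libraries and at -2.24 in LPS plus IFNg replicate 2, is left out.

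Likeness to each gene was measured as the root mean square difference between log2 profiles over the 8 libraries, each centred on its own mean, against 7282 other genes with a mean of at least 5. It is a description and has no test. For Parp14 the closest genes outside the set were Mxd1 (0.23), Mnda (0.39) and Stat2 (0.41), a transcription factor of interferon signalling. For Dtx3l they were Ly6e (0.17), Aif1 (0.20) and Prdx5 (0.25). For Parp9 they were Pion (0.37), Ascc3 (0.40) and Nfkbia (0.41), the inhibitor of NF-kappaB. For Parp10 they were Gvin1 (0.31), a large interferon-induced GTPase, Mlkl (0.31), which carries out necroptosis, and Il2rg (0.33). For Parp12 they were Pml (0.43), the organiser of PML nuclear bodies, Tap1 (0.46), the peptide transporter of antigen presentation, and Ifi204 (0.48). For Parp8 they included Luzp1 (0.21) and Msr1 (0.23), a macrophage scavenger receptor. For Parp1 they were Mlh3 (0.45), Cdkn1c (0.45) and Zfp704 (0.47), and for Parp2 Uchl1 (0.15), Gigyf1 (0.29) and Tgfbr2 (0.32).

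Within the set, Parp9 and Dtx3l were the closest pair at 0.59, where Dtx3l was rank 25 of 7282 for Parp9 and Parp9 was rank 37 for Dtx3l. Parp14 and Dtx3l stood at 0.65, as did Parp12 and Dtx3l. Parp8 stood at 0.96 (Parp9) to 1.66 (Parp14) from the other 5 interferon-linked genes and at 0.91 from Parp2, the gene of the set closest to it. Parp2 was only rank 3447 of 7282 for Parp8. With LPS plus IFNg against no stimulus Parp8 and Parp2 differed in sign (1.14 and -0.80). The other 5 interferon-linked genes were 0.59 to 1.14 apart, the widest being Parp10 and Parp12. Parp14 and Parp1 were the farthest pair at 2.77, and Parp1 and Parp2 were 1.37 apart. In IL4 replicate 2, Parp14 and Dtx3l were listed at the same value of 7.02, which 20 genes shared.

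Of the 9 other PARP family genes, 4 were higher with LPS plus IFNg in at least 1 comparison and none was lower. Against no stimulus 3 of 9 were higher and 0 lower, with a median of 0.77, where 3.72% of all genes were higher and 4.25% lower. Against IL4 4 of 9 were higher and 0 lower, with a median of 1.10, where 5.91% and 6.96% of all genes were. With IL4 0 of 9 passed in either direction, with a median of -0.06. At an unadjusted limma p under 0.05, 1 was higher and 1 lower with IL4, where 753 and 895 of all 13615 genes were.

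Parp11, a mono-ADP-ribosyltransferase whose start carries both motifs shown above, stood at 5.66 and 6.57 without stimulus, at 5.37, 5.09 and 2.26 with IL4, and at 9.15, 8.97 and 9.22 with LPS plus IFNg. The libraries with LPS plus IFNg were above all others, with a difference of 4.87 ± 0.80 from IL4 (limma, adjusted p = 0.00779). From no stimulus it differed by 3.002, which did not pass (adjusted p = 0.0985). Parp3, which acts at DNA double-strand breaks, stood at 5.66 and 3.86 without stimulus, at 4.12, 5.75 and 4.20 with IL4, and at 8.53, 7.75 and 8.22 with LPS plus IFNg. It rose by 3.40 ± 0.72 against no stimulus (adjusted p = 0.0307) and was higher by 3.48 ± 0.64 than with IL4 (adjusted p = 0.0126). Parp3, although a DNA repair gene, was thus higher where all libraries of Parp1 and Parp2 were lower, though its rise against no stimulus was lost without no stimulus replicate 2 or any LPS plus IFNg library (adjusted p up to 0.194).

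Zc3hav1, the zinc finger antiviral protein, which has lost the catalytic activity, stood at 6.58 and 5.70 without stimulus, at 7.30, 6.57 and 7.03 with IL4, and at 7.96, 9.07 and 8.66 with LPS plus IFNg. Its rise against no stimulus was 2.42 ± 0.43 (limma, adjusted p = 0.0158), lost without no stimulus replicate 2 and without LPS plus IFNg replicates 2 or 3 (adjusted p up to 0.133). Tiparp, a mono-ADP-ribosyltransferase induced by the aryl hydrocarbon receptor, stood at 7.40 and 6.62 without stimulus, at 7.79, 8.50 and 8.30 with IL4, and at 9.54, 9.05 and 9.30 with LPS plus IFNg. It rose by 2.29 ± 0.32 (adjusted p = 0.00685), lost without no stimulus replicate 2 (adjusted p = 0.0512). Their IL4 libraries lay above the lower unstimulated value, while those of Parp14 and Dtx3l lay below the lower one. Against IL4 they were higher by 1.60 and 1.10 (adjusted p = 0.0358 and 0.0492), calls lost when most single libraries were left out for Zc3hav1 (7 of 8) and any of them for Tiparp (adjusted p up to 0.141).

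Parp4, whose window carries the motif pair shown above, stood at 6.33 and 6.58 without stimulus, at 7.06, 5.68 and 6.44 with IL4, and at 7.91, 6.71 and 7.04 with LPS plus IFNg. Its libraries with LPS plus IFNg were above the unstimulated ones, by 0.77 (limma, adjusted p = 0.485). The tankyrases Tnks and Tnks2, which act in Wnt signalling and at telomeres, and Parp6 and Parp16 passed in no comparison.

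**Figure D5:**
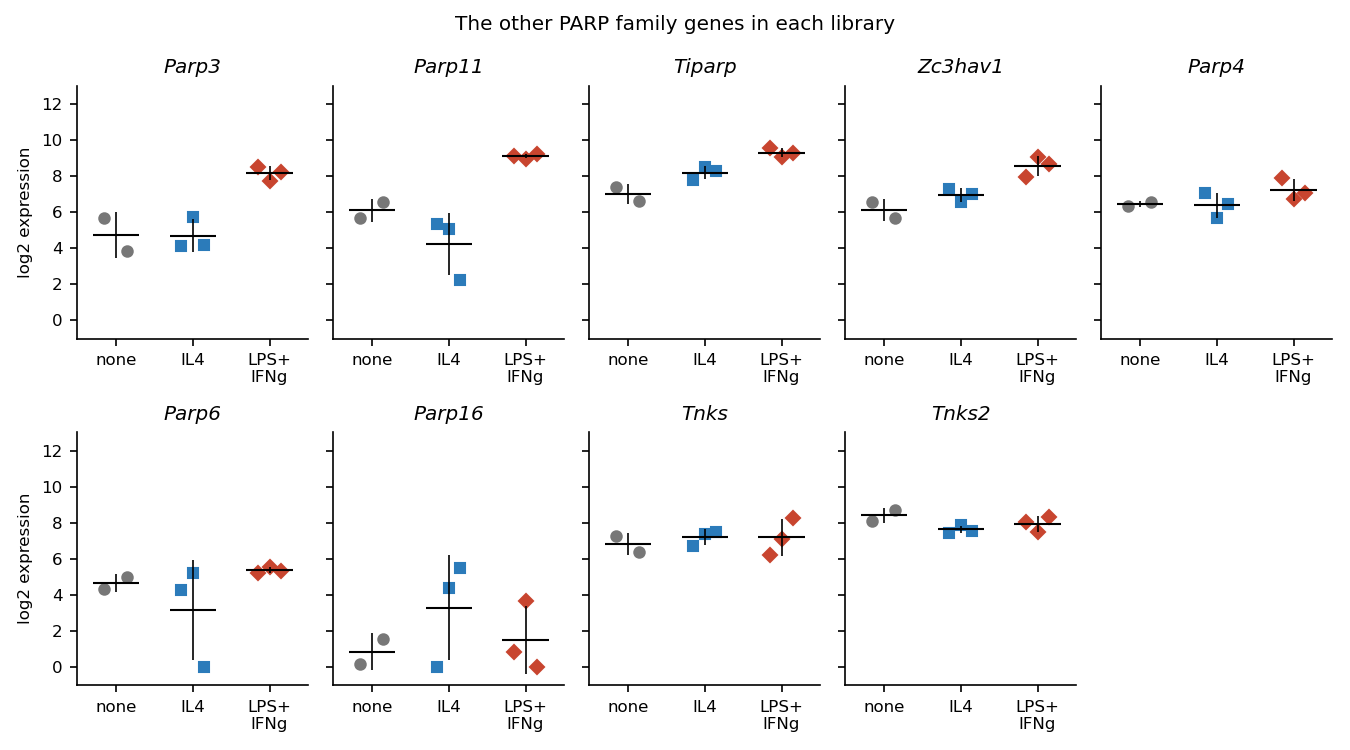
Log2 expression of the 9 other PARP family genes in each of the 8 libraries by group (points), with the group mean (horizontal line) and SD (vertical line). Parp3 and Parp11 show LPS plus IFNg libraries at 7.75 to 9.22, above all their other libraries, and Tnks and Tnks2 show groups that overlap between IL4 and LPS plus IFNg.

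The genes around ADP-ribose were described from lists. Of 14 tested genes that remove or bind ADP-ribose, 0 passed in any comparison. At an unadjusted limma p under 0.05, 0 were higher and 2 lower with IL4, 0 and 2 with LPS plus IFNg against no stimulus, and 2 and 0 between the stimuli. Of all 13615 genes, 753 were higher and 895 lower at that p with IL4, 1153 and 1484 with LPS plus IFNg against no stimulus, and 1585 and 1893 between the stimuli. The medians of the list were -0.24, -0.24 and 0.03. H2afy, the macroH2A histone with a macrodomain, differed by -0.60 (limma, adjusted p = 0.194) and Adprh, an ADP-ribosylarginine hydrolase, by -0.02 between LPS plus IFNg and no stimulus. None of the 4 other deltex ligases passed either, and 1 was lower at an unadjusted limma p under 0.05 in each comparison, with 0 higher. Dtx4 stood at 7.16 and 7.18 without stimulus, at 6.81, 7.20 and 9.15 with IL4, and at 5.14, 6.03 and 4.18 with LPS plus IFNg, and was -2.60 from IL4 (limma, adjusted p = 0.0536), opposite in sign to Dtx3l.

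NAD, the substrate of the family, is made and used by a further 14 tested genes. With LPS plus IFNg, 2 rose and 0 fell against no stimulus and 3 were higher and 0 lower against IL4. Of all genes tested, 3.72% were higher and 4.25% lower against no stimulus, and 5.91% and 6.96% against IL4. The medians of the list were 0.59 and 1.39. With IL4 0 passed, also at an unadjusted limma p under 0.05, where 753 of all 13615 genes were higher and 895 lower. Nampt, the rate-limiting enzyme of NAD salvage, stood at 10.03 and 10.28 without stimulus, at 9.71, 9.89 and 9.46 with IL4, and at 12.34, 12.25 and 12.04 with LPS plus IFNg. It rose by 2.06 ± 0.20 (4.16-fold, limma, adjusted p = 0.00211) and kept that call without each of the 8 libraries. The NAD-consuming ectoenzymes Bst1 and Cd38 also had their highest values with LPS plus IFNg. Bst1 stood at 4.05 and 5.08 without stimulus, 4.80 to 5.55 with IL4 and 9.12 to 9.63 with LPS plus IFNg, a rise of 4.78 ± 0.42 (limma, adjusted p = 0.0014). Cd38 stood at 3.90 and 5.08 without stimulus, at 4.67, 0 and 0 with IL4, and at 9.93, 9.10 and 9.69 with LPS plus IFNg. It passed against IL4 (8.01 ± 1.25, adjusted p = 0.00656) and not against no stimulus (5.08, adjusted p = 0.0783).

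Of 13 genes that work with Parp1 and Parp2 at single-strand breaks, 0 passed with IL4. At an unadjusted limma p under 0.05, 0 were higher and 1 lower, where 753 and 895 of all 13615 genes were. With LPS plus IFNg 1 fell against no stimulus and 2 were lower against IL4, and 0 were higher in both. Of all genes tested, 4.25% were lower against no stimulus and 6.96% against IL4, so these counts lie near that share. The medians of the list were -0.71 and -0.27. The gene 2700029M09Rik, now named Hpf1, encodes the factor that directs Parp1 and Parp2 to serine. It stood at 7.91 and 8.78 without stimulus, at 8.20, 8.72 and 8.40 with IL4, and at 6.28, 6.39 and 7.04 with LPS plus IFNg, below all other libraries. It fell by 1.77 on the log2 scale against no stimulus, with an SE of 0.36 (limma, adjusted p = 0.0270), and was -1.87 ± 0.32 from IL4 (adjusted p = 0.00967). Under scaling to ribosomal protein genes these were -0.27 and -0.36 and did not pass, and the first also missed the threshold under scaling to housekeeping genes (adjusted p = 0.0596) and without no stimulus replicate 2 or LPS plus IFNg replicates 1 or 2 (adjusted p up to 0.163). Ung, the uracil DNA glycosylase, stood at 2.57 and 5.26 without stimulus and at 4.61, 5.36 and 4.12 with IL4. Each library with LPS plus IFNg listed it at 0, which passed against IL4 (limma, adjusted p = 0.0146) and not against no stimulus. As depth is unknown, a lower level and reads missed at a low level cannot be told apart here.

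Interferon signalling genes, of which 19 were listed, gave counts in both directions. Of the 19, 9 rose and 1 fell with LPS plus IFNg against no stimulus, where 3.72% of all genes were higher and 4.25% lower. Against IL4 9 were higher and 1 lower, where 5.91% and 6.96% of all genes were. The medians of the list were 0.98 and 1.96. With IL4 2 rose (Socs1 and Jak2) and 1 fell (Irf7), with a median of -0.58, where 0.514% and 0.793% of all genes did. Jak2, a kinase of cytokine receptors, rose by 2.14 ± 0.37 with IL4 (limma, adjusted p = 0.0461), lost when any of the 8 libraries was left out (adjusted p up to 0.187) and with only these 2 groups in the fit (adjusted p = 0.178). Irf7, a transcription factor of the interferon response, stood at 6.41 and 7.84 without stimulus, at 4.19, 3.68 and 4.68 with IL4, and at 11.12, 11.31 and 11.22 with LPS plus IFNg. It had the order of Parp14 and Dtx3l, with a rise of 4.09 ± 0.46 (limma, adjusted p = 0.00308) and a fall with IL4 of 2.94 on the log2 scale (adjusted p = 0.0328), which was lost when any of 6 libraries was left out. Usp18, which removes the ubiquitin-like Isg15 from proteins, rose by 5.33 ± 0.67 (adjusted p = 0.00463). Isg15 itself rose by 5.75 ± 1.20 (adjusted p = 0.0305, lost without either unstimulated or any LPS plus IFNg library). Irf1, another such factor, was higher by 4.99 ± 0.36 than with IL4. Socs1, an inhibitor of cytokine receptor signalling, went the other way from Parp14 with IL4, with 3.05 and 2.14 without stimulus and 8.35, 8.34 and 8.61 with IL4 (5.84 ± 0.30, adjusted p = 0.000488). The single gene that fell was Ifngr1, a chain of the interferon gamma receptor, named after its values were seen, at -2.19 ± 0.36 against no stimulus (adjusted p = 0.0123). Stat2, the factor found closest to Parp14 within this list, differed by 3.14 from no stimulus with LPS plus IFNg (adjusted p = 0.00136) and by -1.18 with IL4, which did not pass (adjusted p = 0.112).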

How the data were processed

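The authors deposited 1 table of 20259 rows with 8 library columns, matched to the libraries by barcode and group name per the file headers. The name of the deposited table gives the values as log2 and quantile-normalised. The tool listed in the submitters' processing notes is TopHat, and the build is mm9. A version, the counting tool and the handling of zeros and of reads with several matches are not stated there. Per the labels' protocols, barcoded 3' end libraries were pooled by Actb level and amplified by PCR, with no molecular identifiers described. Quantile normalisation removes depth, so the reads behind a value are unknown. It also aims at 1 distribution for all libraries, which can hide a shift shared by most genes, although the genes listed at 0 still ranged from 8219 to 10210.

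One row had no symbol and 6643 genes did not vary, leaving 13615. These were tested with limma 3.58.1 in R 4.3.3, with a mean per group, an intensity trend, 5 residual degrees of freedom and Benjamini-Hochberg adjustment over all 13615 genes. Zeros were kept. On simulated data with changes of 4 log2 units, the share recovered was 68.2% for IL4 against no stimulus, 63.6% for LPS plus IFNg against no stimulus and 62.1% between the stimuli. At 2 log2 units it was 23.9%, 23.9% and 20.9%, so many changes of that size would be missed. Ratios within libraries were tested by exact permutation.

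The members, lists and tests were chosen with earlier results of these data known. Named genes were the 8 members, all other PARP genes, from each further list up to 4 past the threshold by size and up to 2 not past it by level, the 3 genes closest to each member, and 4 stimulus genes. One gene close to Parp8 is not reported here. A few others are named where a result turned on them. Alternatives were the trend, the groups in the fit, low genes, a pseudocount, values below 0, scaling to housekeeping or ribosomal protein genes, library weights, a replicate block and leaving out each library. Promoter windows of Parp9, Parp10 and Parp14 themselves were not analysed here. The Dtx3l stretch shown above also overlaps an exon of Parp9, so its match is not particular to Dtx3l.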

Additional observations from a re-analysis of the deposited data

How the results depend on the processing

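Depth is unknown, so no counting error could be given, and each group has only 2 or 3 libraries. The calls of Parp14 and Dtx3l for LPS plus IFNg against no stimulus, and the 5 calls against IL4, held in all 17 alternatives run. The IL4 count of 2 genes became 1 without the intensity trend and 0 when the fit held only the 2 groups compared, and was 1 to 2 when a library was left out. The count of 4 for LPS plus IFNg against no stimulus was 2 to 4 when a library was left out, with 2 only without no stimulus replicate 2, 3 without the intensity trend, and 6 under either scaling. Same-numbered libraries did not deviate together (r from -0.079 to 0.072 in 7 pairs), and no label ties the numbers. With a replicate block the IL4 count was 0, the count for LPS plus IFNg against no stimulus was 3 (Parp9 lost, adjusted p = 0.0752), and calls over all genes were 7 higher and 1 lower for IL4, 255 and 256 for LPS plus IFNg against no stimulus, and 629 and 691 between the stimuli.

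A fit on those 2 groups alone gave for IL4 7 higher and 0 lower calls over all genes. Leaving out a library gave 36 to 123 higher and 45 to 183 lower for IL4, and 341 to 556 higher and 309 to 598 lower for LPS plus IFNg against no stimulus. Some values that were not called changed sign. Parp10 with IL4 was 0.058 under scaling to housekeeping genes, 0.23 without no stimulus replicate 1 and 0.22 without IL4 replicate 2. Under scaling to ribosomal protein genes, Parp2 was 0.70 for LPS plus IFNg against no stimulus and Parp1 was 0.95 between the stimuli. The IL4 ratio of Parp12 was -0.061 to Parp1 alone, -0.48 without no stimulus replicate 1, -0.37 without IL4 replicate 1 and -0.34 without IL4 replicate 2, and that of Parp9 was -0.23 without IL4 replicate 2. When a library was left out, the IL4 ratio of Parp12 was -0.48 to 0.82 and that of Parp9 -0.23 to 0.98. The cause was not tested. Leaving out libraries for the ratios, and all alternatives for genes outside the set, were chosen after seeing the data.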
